A study of Homo sapiens with 6 samples.

Results

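Fibronectin, the fibrillin microfibrils and the elastic fibre were followed through 10 genes: FN1, FBN1, FBN2, MFAP2, MFAP5, ELN, FBLN1, FBLN5, EFEMP1 and EFEMP2. They were picked for their roles, with earlier results of these data known, and taken by symbol from rows on the reference chromosomes. They make up 10 of the 64253 genes in the table. The cells were H69, an immortalised line of human cholangiocytes, the epithelium of the bile ducts, at passages 30 to 32. A vehicle group of 3 libraries was set against 3 libraries from cells exposed for 16 h to 10 ng/ml of the recombinant human cytokine TGF-beta, to find which transcripts it changes. Whether the replicates came from different cultures is not labelled. The p-values therefore rest on the spread among these libraries, which may be technical.

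Fibronectin is a secreted glycoprotein that cells pull into fibrils through integrins, and its fibrils are a scaffold on which other matrix proteins are laid down. Fibrillins polymerise into microfibrils, the microfibril-associated glycoproteins MFAP2 and MFAP5 bind them, and elastin is deposited on this template with the help of fibulins before lysyl oxidases crosslink it. Microfibrils and fibronectin also hold latent TGF-beta complexes in the matrix, so some of these genes belong to the storage of the cytokine.

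The upstream sequences of FN1, FBLN5, MFAP2 and the fibrillin pair are shown because these genes carry the contrasts below: FN1, FBLN5 and MFAP2 rose at least 2-fold, while FBN1 and FBN2 code for closely related proteins and differed in their call. Sequences are from RefSeq on GRCh38.p14, 5′ to 3′ on the strand of the gene, and lie within the 250 bases before the RefSeq gene start. That start can differ from the outermost start in the deposited gene coordinates: the FBN1, FBN2 and FBLN5 stretches lie inside the deposited gene, FBN2 deep within it, and the MFAP2 stretch lies upstream of it. Stretches that GENCODE 29 annotates as exon of any transcript were left out, so FN1 is given from 184 to 105 and FBLN5 from 240 to 130 bases before the start. Capitals mark matches within the printed letters, on either strand, to the SMAD box CAGAC, the AP-1 element TGANTCA, the cyclic AMP response element TGACGTCA, the CCAAT box CCAAT, the TATA box TATAAA or the GC box GGGCGG.
FN1, chr2:215436173-215436252, minus strand: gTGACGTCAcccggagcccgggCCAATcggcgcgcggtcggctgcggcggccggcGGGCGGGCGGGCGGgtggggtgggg
FBLN5, chr14:91947824-91947934, minus strand: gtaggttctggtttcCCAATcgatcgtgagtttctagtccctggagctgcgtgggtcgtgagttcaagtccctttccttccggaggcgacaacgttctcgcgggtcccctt
MFAP2, chr1:16981584-16981833, minus strand: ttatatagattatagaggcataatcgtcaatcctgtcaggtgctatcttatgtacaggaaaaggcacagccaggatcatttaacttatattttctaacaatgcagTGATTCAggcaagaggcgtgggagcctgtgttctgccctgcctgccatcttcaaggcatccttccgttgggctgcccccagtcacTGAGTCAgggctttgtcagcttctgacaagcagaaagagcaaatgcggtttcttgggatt
FBN1, chr15:48644971-48645220, minus strand: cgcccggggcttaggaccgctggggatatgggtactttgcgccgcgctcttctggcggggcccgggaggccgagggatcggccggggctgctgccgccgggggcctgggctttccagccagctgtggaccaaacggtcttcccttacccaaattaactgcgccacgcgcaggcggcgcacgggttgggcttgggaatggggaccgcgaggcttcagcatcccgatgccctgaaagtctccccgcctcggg
FBN2, chr5:128538246-128538495, minus strand: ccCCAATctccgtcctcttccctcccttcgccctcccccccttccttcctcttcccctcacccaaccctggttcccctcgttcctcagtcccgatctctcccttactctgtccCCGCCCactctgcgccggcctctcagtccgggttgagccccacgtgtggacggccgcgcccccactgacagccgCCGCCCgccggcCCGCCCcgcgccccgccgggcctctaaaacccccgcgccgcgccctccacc

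RefSeq windows were matched for 7 of the 10 genes: these 5, FBLN1 and EFEMP2. MFAP2 held 2 matches to the AP-1 element, beginning 145 and 60 bases before its start, where 6.57% of 35116 windows of this length held any. Over the whole window FN1 held the cyclic AMP response element, found in 1.65% of windows, with a CCAAT box (32.0% of windows) and 6 GC box matches, some of which overlap each other. GC boxes were found in 42.6% of windows and in 5 of the 7. The SMAD box was found in 38.0% of windows and in 2 of the 7, FBLN1 and EFEMP2, and the TATA box in 10.7% of windows and in none of the 7. MFAP2 also differed in composition, with 46.8% G and C against 69.6% to 81.6% in the other 6 and a median of 58.0% over all windows. A match describes letters in this window and is not evidence of a bound site.

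Libraries held 37205862 to 54160521 counted reads, and 1 CPM (a unit of counts scaled to library size, after TMM correction for library composition) stood for 35.7 to 56.2 reads. Vehicle replicate 1 stood apart from the other vehicle libraries, at 36.6 on the second principal component against -14.9 and -18.7. Among cholangiocyte markers the keratins were abundant (KRT7 at 1538 ± 169 CPM and KRT8 at 1215 ± 20.4 CPM in vehicle, mean ± SD, n = 3). EPCAM was low (13.5 ± 2.10 CPM), and CFTR had 0 reads in all libraries together. Of 8 fibroblast markers, DPT had 0 reads, COL3A1 4 and LUM 6, whereas PDGFRB, THY1 and POSTN rose and PDGFRA fell, and the summed list ran from 168 to 187 CPM in vehicle and from 268 to 288 CPM with TGF-beta. Of 9 cholangiocyte markers 7 were tested, of which KRT7 and KRT8 rose and EPCAM, CDH1 and SOX9 fell, and their sum ran from 4011 to 4374 CPM in vehicle and from 5704 to 6214 CPM with TGF-beta. Smooth muscle markers summed to 19.6 to 20.3 and 46.6 to 51.6 CPM, with 10 reads of DES; of 3 tested, CNN1 rose, LMOD1 fell and MYH11 was not called. Endothelial markers summed to 20.2 to 24.8 and 10.4 to 12.1 CPM (15 reads of CDH5, and 3 of 4 tested fell). Leukocyte markers summed to 9.09 to 10.8 and 8.98 to 10.6 CPM, with 11 reads of PTPRC. Only CD68 of these 5 was tested, and it was not called. The most abundant fibroblast marker in vehicle was THY1 (105 ± 3.67 CPM). For smooth muscle it was MYH11 (10.6 ± 0.979 CPM), for endothelium KDR (19.2 ± 2.65 CPM) and for leukocytes CD68 (9.95 ± 0.832 CPM). THY1 and KDR were above EPCAM. Of all genes tested, 19.7% were called higher and 20.4% lower. The part of these markers in the results was not tested. In a bulk library, fewer cells of a kind and less RNA per cell cannot be told apart.

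Of the 10 genes, 7 rose, 1 fell, 1 was not called and 1 was too scarce to test. A gene was called where the Benjamini-Hochberg adjusted p of the quasi-likelihood test in edgeR was under 0.05 over 20992 genes, of which 19.7% were called higher, 20.4% lower and 40.1% in either direction. FN1, FBLN5, ELN and MFAP2 rose at least 2-fold, as did 4.78% of all genes tested. For 8 of the 10 the CPM of vehicle and TGF-beta libraries had no overlap, against 52.3% of all genes tested. The median log2 fold change was 0.59 over the 9 tested and -0.01 over all genes tested. The same 7 rises and 1 fall were found without vehicle replicate 1, where 24.9% of all genes tested were called higher and 25.5% lower. Together the 10 genes took 0.213 ± 0.00616% of counted reads in vehicle and 0.401 ± 0.00471% with TGF-beta, and FN1 alone went from 33.5 ± 2.24% to 63.2 ± 0.998% of their reads.

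**Figure D1:**
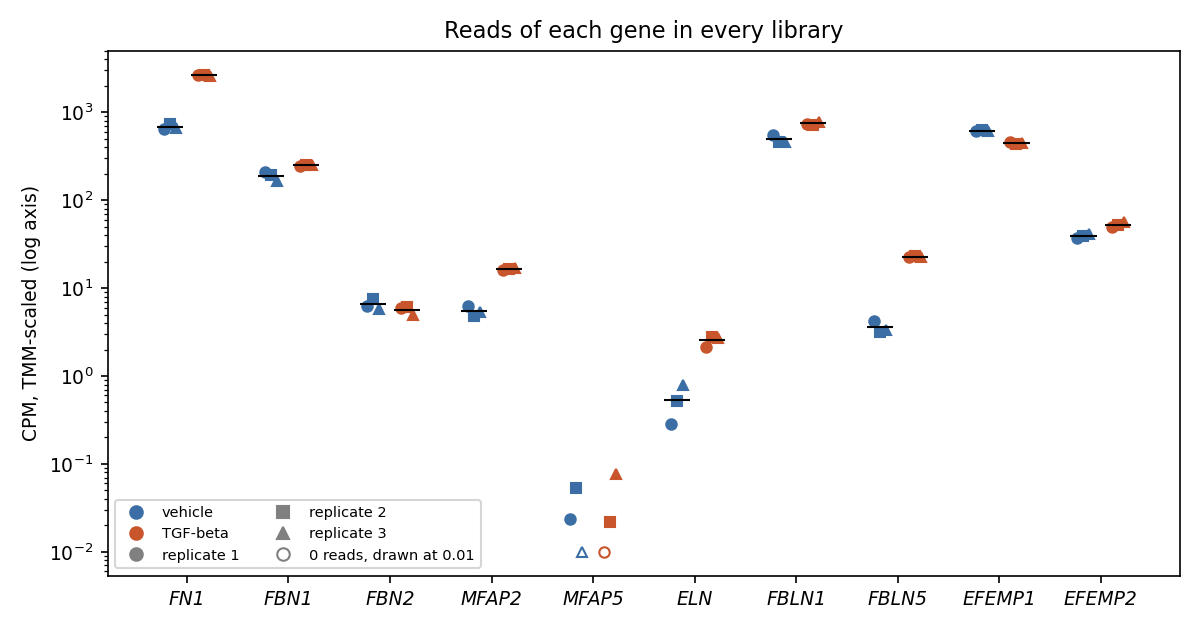
CPM of each gene in every library on a log axis, with vehicle in blue, TGF-beta in orange, a marker shape for each replicate number and a bar at the mean (no bar for MFAP5, where open symbols are libraries with 0 reads). FN1, MFAP2, ELN and FBLN5 show the widest gaps between conditions, EFEMP1 is lower with TGF-beta, and the FBN2 points overlap.

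FN1 encodes fibronectin (ENSG00000115414, hg38 chr2:215360440-215436172, minus strand). Vehicle libraries 1, 2 and 3 measured 645, 739 and 665 CPM, and TGF-beta libraries 1, 2 and 3 measured 2675, 2681 and 2581 CPM. Every TGF-beta library was far above every vehicle library, and the spread within a condition was small beside the gap. The log2 fold change was 1.95 (SE 0.06), a 3.87-fold rise, (adjusted p = 2.92e-09 by edgeR).

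FBN1 and FBN2 encode the fibrillins that build microfibrils, FBN2 being known best from developing tissue. FBN1 (ENSG00000166147, chr15:48408306-48645849) measured 207, 193 and 167 CPM in vehicle and 248, 252 and 251 CPM with TGF-beta. The rise was modest, at a log2 fold change of 0.41 (SE 0.07, adjusted p = 0.00123 by edgeR), and the vehicle libraries were spread far wider (SD 20.1 CPM) than the TGF-beta libraries (SD 2.35 CPM). FBN2 (ENSG00000138829, chr5:128257909-128659185) was scarce, at 6.25, 7.56 and 5.81 CPM in vehicle and 5.91, 6.09 and 4.95 CPM with TGF-beta. Its conditions overlapped, and its log2 value of -0.21 (SE 0.12) was not called (adjusted p = 0.197 by edgeR). With library totals as the only scaling, which moves the median of all genes to -0.14, FBN2 was called lower at -0.34 (adjusted p = 0.0412 by edgeR, against 0.0652 to 0.624 over its other alternatives).

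The microfibril-associated glycoproteins were on opposite sides of detection. MFAP2 (ENSG00000117122, chr1:16974502-16980835) measured 6.27, 4.79 and 5.28 CPM in vehicle and 15.9, 16.5 and 16.9 CPM with TGF-beta. No vehicle library reached the TGF-beta level, and the log2 fold change was 1.60 (SE 0.10, adjusted p = 5.70e-07 by edgeR), a 3.03-fold rise. MFAP5 (ENSG00000197614, chr12:8637346-8662888) had 1, 3 and 0 reads in the vehicle libraries and 0, 1 and 3 reads in the TGF-beta libraries. These 8 reads were under the low-count filter, and a difference was not detectable at this depth, where 3 reads correspond to 0.0534 to 0.0840 CPM. MFAP5 also shares 65 exon bases with the opposite-strand pseudogene HADHAP2, which had 122 reads.

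ELN encodes tropoelastin, the soluble monomer of elastin (ENSG00000049540, chr7:74027789-74069907). It had 12, 29 and 41 reads in vehicle (0.286, 0.516 and 0.791 CPM) and 76, 127 and 104 reads with TGF-beta (2.13, 2.80 and 2.68 CPM). All TGF-beta libraries were above all vehicle libraries, and the level stayed low in both conditions. The log2 fold change of 2.23 had the widest error of the 9 tested (SE 0.27, adjusted p = 0.000139 by edgeR). Its value ran from 1.97 without vehicle replicate 1 to 2.61 without vehicle replicate 3. ELN shares 165 exon bases with the opposite-strand gene ELN-AS1, which had 68 reads over all libraries against 389 for ELN and was not called (log2 -0.36). Whether the counting used strand is not stated, so reads in the bases that such pairs share cannot be told apart.

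Fibulins are glycoproteins that bind elastin, fibrillin or basement membrane components, and 4 of them belong to the set. FBLN5, which brings tropoelastin to cells and microfibrils, had the largest fold change of the 9 tested with all libraries (ENSG00000140092, chr14:91869412-91947987). It measured 4.27, 3.20 and 3.38 CPM in vehicle and 22.4, 23.1 and 22.5 CPM with TGF-beta. The libraries of each condition lay close together, and the log2 fold change was 2.66 (SE 0.10), a 6.31-fold rise with an adjusted p of 1.86e-08 by edgeR. Without vehicle replicate 3 FBLN5 and ELN both stood at 2.61, and in the limma fit on log2(RPKM + 1) FN1 (1.81) was above FBLN5 (1.13). FBLN1, found in elastic fibres and basement membranes (ENSG00000077942, chr22:45502238-45601135), measured 557, 462 and 463 CPM in vehicle and 736, 724 and 780 CPM with TGF-beta. Vehicle replicate 1 was the highest of its condition yet below every TGF-beta library. The rise was 0.59 on the log2 scale (SE 0.07, adjusted p = 0.000199 by edgeR).

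EFEMP1 and EFEMP2 encode fibulin-3 and fibulin-4, and they moved apart. EFEMP1 (ENSG00000115380, chr2:55865967-55924139) was the only called fall among the 10, from 610, 630 and 619 CPM in vehicle to 460, 433 and 445 CPM with TGF-beta. Its replicates were tight in both conditions, and the log2 fold change was -0.47 (SE 0.04, adjusted p = 9.21e-06 by edgeR). EFEMP2, needed for elastic fibre assembly and for bringing lysyl oxidase to elastin (ENSG00000172638, chr11:65866441-65873592), measured 36.7, 38.8 and 41.4 CPM in vehicle and 50.0, 52.4 and 56.1 CPM with TGF-beta. The rise was 0.44 (SE 0.06, adjusted p = 0.000239 by edgeR). EFEMP2 overlaps MUS81 on the opposite strand by 11 exon bases. MUS81 was not called (log2 0.13).

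**Figure D2:**
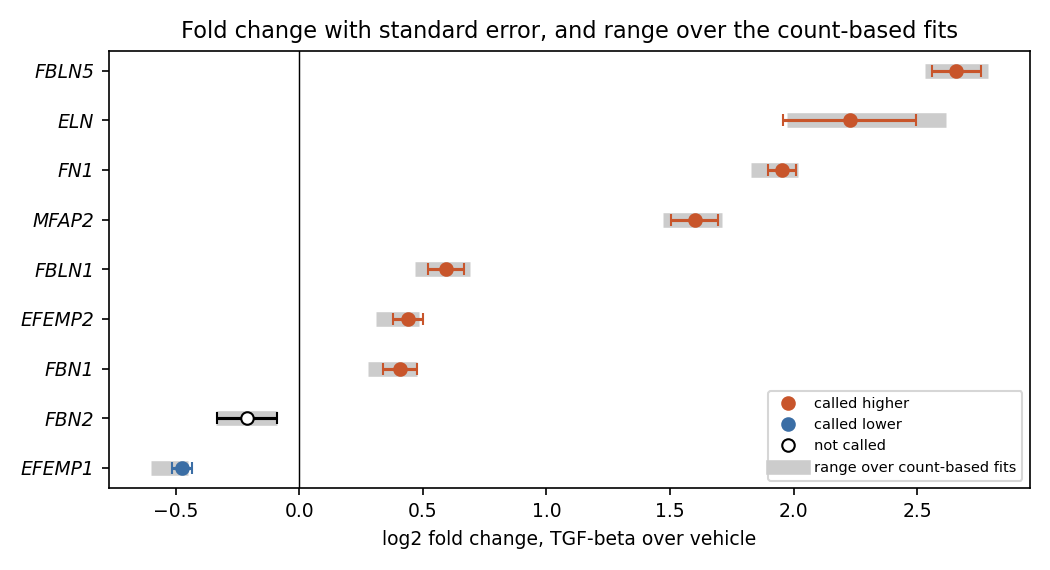
Log2 fold change of TGF-beta over vehicle for the 9 tested genes, with the standard error as bars and the range over the count-based fits, including each left-out library, as a grey band. FBLN5, ELN, FN1 and MFAP2 lie above 1, EFEMP1 lies below 0, and FBN2 is the gene whose call moved, with library totals alone.

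Vehicle replicate 1 was the highest vehicle library for FBN1, FBLN1, FBLN5 and MFAP2, and the lowest for FN1, ELN, EFEMP1 and EFEMP2. No direction or call among the 9 tested depended on it. Without it the log2 fold changes were 1.91 for FN1, 0.48 for FBN1, 0.69 for FBLN1, 2.79 for FBLN5, 1.71 for MFAP2, -0.49 for EFEMP1, 0.40 for EFEMP2 and -0.24 for FBN2.

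Ratios between related genes within a library do not depend on how libraries are scaled. Reads per kb of FBLN5 were 1.10, 0.993 and 1.04% of those of FBLN1 in vehicle and 4.36, 4.57 and 4.14% with TGF-beta. EFEMP2 stood at 4.42, 4.51 and 4.91% of EFEMP1 in vehicle and at 7.97, 8.89 and 9.24% with TGF-beta. FBN2 stood at 3.67, 4.78 and 4.23% of FBN1 in vehicle and at 2.90, 2.94 and 2.40% with TGF-beta. None of the 3 ratios overlapped between conditions, with log2 differences of 2.06, 0.91 and -0.62. Each had p = 0.1 in a two-sided exact permutation test, also adjusted over the 3, which is the smallest value 3 libraries against 3 allow. These differences follow from the fold changes given above and are no separate result. Ratios of other gene pairs were not computed. A ratio of MFAP5 to MFAP2 was not formed because 2 libraries had 0 reads of MFAP5.

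**Figure D3:**
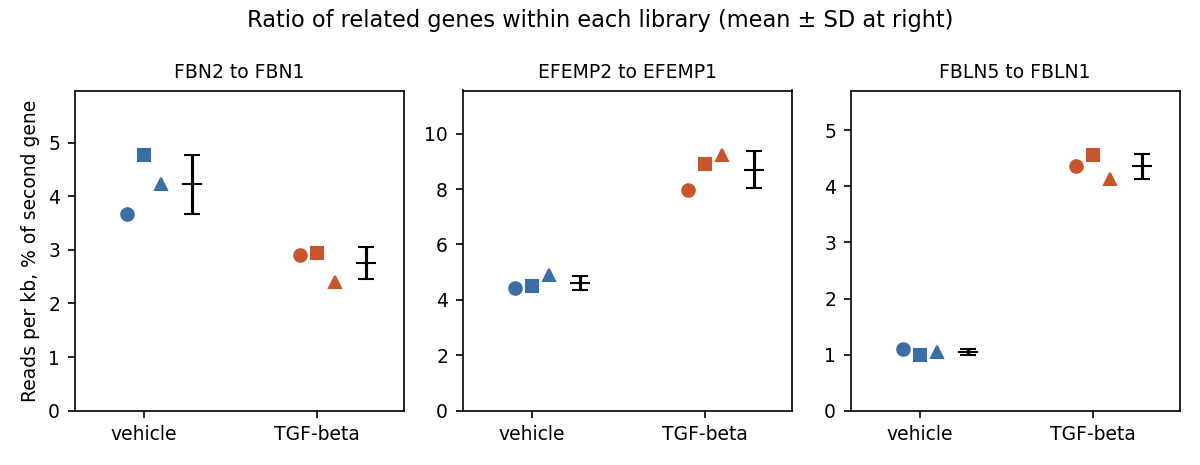
Reads per kb of FBN2, EFEMP2 and FBLN5 as a percentage of FBN1, EFEMP1 and FBLN1 in each library, with a marker for each replicate number and mean ± SD (n = 3) at the right of each condition. The conditions separate in each panel, downward for FBN2 to FBN1 and upward for the other two.

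Levels were compared between genes per kb, on the deposited RPKM. In vehicle the order was EFEMP1 (68.6 ± 0.916 RPKM, mean ± SD, n = 3), FBLN1 (30.4 ± 3.41), FN1 (17.3 ± 1.18), FBN1 (5.16 ± 0.542), EFEMP2 (3.17 ± 0.196), MFAP2 (0.820 ± 0.116), FBLN5 (0.319 ± 0.0511), FBN2 (0.217 ± 0.0293) and ELN (0.0356 ± 0.0170), with MFAP5 last at 0.00290 ± 0.00301 RPKM. With TGF-beta, FN1 came first (63.1 ± 1.63 RPKM), followed by EFEMP1 (46.5 ± 1.47), FBLN1 (43.3 ± 1.49), FBN1 (6.44 ± 0.0625), EFEMP2 (4.04 ± 0.218), MFAP2 (2.33 ± 0.0624) and FBLN5 (1.88 ± 0.0351). FBN2 (0.177 ± 0.0198 RPKM) and ELN (0.160 ± 0.0226 RPKM) overlapped each other, and MFAP5 was last again (0.00352 ± 0.00422 RPKM). No other neighbours in these orders overlapped in range.

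The deposited length equals the summed exons of all GENCODE 29 transcripts for 9 of the 10 genes, FBLN1 being the exception (7128 against 7285 bases). It was 1.94 times the length of the transcript with the longest coding sequence for FN1, 3.03 times for FBLN1 and 1.31 times for EFEMP1. With that transcript length, an alternative chosen after seeing the data, FBLN1 and EFEMP1 overlapped in vehicle (92.1 ± 10.3 and 89.9 ± 1.20 RPKM) and FBLN1 came first with TGF-beta (131 ± 4.50 RPKM), ahead of FN1 (123 ± 3.16) and EFEMP1 (60.9 ± 1.93). EFEMP2 then stood above FBN1 in both conditions. On both lengths FN1 was below EFEMP1 in vehicle and above it with TGF-beta.

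**Figure D4:**
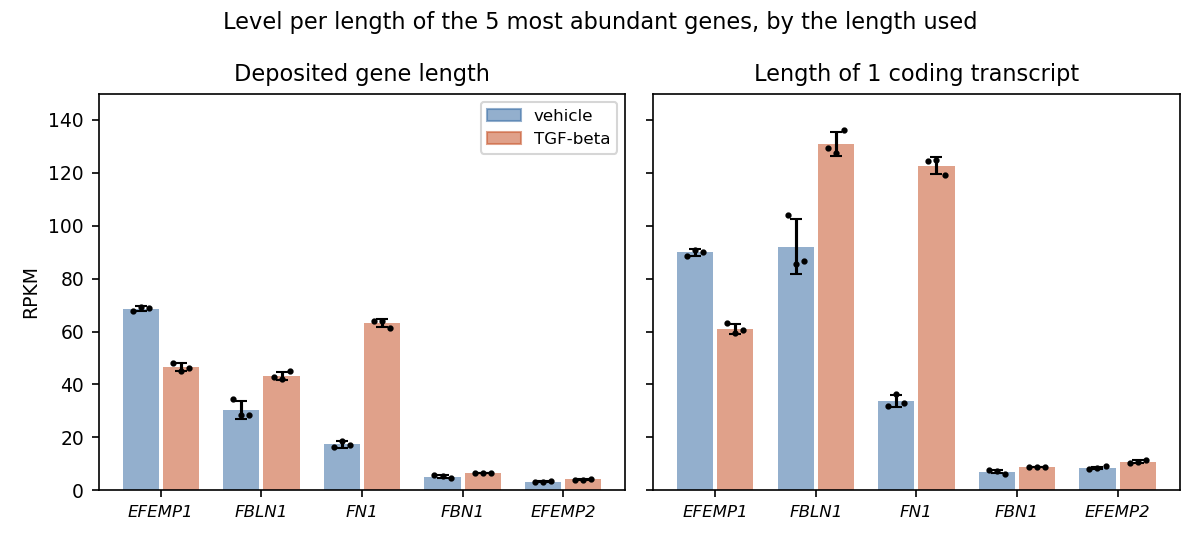
RPKM of the 5 most abundant genes in vehicle (blue) and with TGF-beta (orange), as bars at the mean with SD (n = 3) and a point for each library, with the deposited gene length at left and the length of 1 coding transcript at right. FN1 passes EFEMP1 on both scales, whereas the place of FBLN1 depends on the length.

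Genes that bind, process, crosslink or degrade these proteins were drawn from lists made by role. Of 55 such genes 48 were tested, of which 31 were called higher, 1 lower and 16 not called, beside the 19.7% and 20.4% of all genes tested. Without vehicle replicate 1 the counts were 34 higher, which include the same 31, and 5 lower, beside 24.9% and 25.5% of all genes tested in that fit.

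In the list of other fibrillin, fibulin and microfibril-associated genes, 4 of 10 tested rose and none fell (median log2 fold change 0.25; 5 rose and 2 fell without vehicle replicate 1). MFAP4, an elastic fibre glycoprotein gene, rose from 1.20 ± 0.163 to 4.36 ± 0.853 CPM (log2 1.86, SE 0.17). FBLN2, a further fibulin, rose from 34.2 ± 0.842 to 124 ± 9.76 CPM (log2 1.85, SE 0.06). TNXB, which encodes a tenascin found near elastic fibres, measured 48.5, 116 and 106 CPM in vehicle and 35.1, 38.6 and 41.9 CPM with TGF-beta. It was not called (log2 -1.22, adjusted p = 0.0661 by edgeR), but was called lower without vehicle replicate 1 (-1.52, adjusted p = 8.45e-16 by edgeR), with library totals alone (0.0440), by DESeq2 (0.00550) and in both limma fits (0.0290 and 0.0244). The adjusted p ran from 0.0520 to 0.176 over the other alternatives. A near-identical pseudogene copy makes its reads uncertain.

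Latent TGF-beta binding proteins share the domain plan of fibrillins, and most of them tether the latent cytokine to the matrix, whereas LTBP2 binds fibrillin microfibrils and does not bind latent TGF-beta. All 4 tested rose (median log2 fold change 0.95). With all libraries LTBP2 had the largest rise of the 4, from 349, 614 and 605 CPM in vehicle to 1218, 1305 and 1335 CPM with TGF-beta (log2 1.30, SE 0.25, adjusted p = 0.0159 by edgeR). Vehicle replicate 1 was well below the other vehicle libraries, and without it LTBP4 (log2 1.09) stood level with LTBP2 (1.08). Without TGF-beta replicate 3 the adjusted p of LTBP2 was 0.0504 by edgeR, the highest over its alternatives.

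Lysyl oxidases rose in 4 of 5 tested and fell in none (median 0.54; 5 of 5 without vehicle replicate 1). LOX, the enzyme that crosslinks elastin and collagen, went from 15.3 ± 0.476 to 86.6 ± 2.79 CPM (log2 2.50, SE 0.05). Among ADAMTS and ADAMTS-like genes tied to microfibrils, 6 of 8 rose and 1 fell (median 1.36; 7 and 1 without vehicle replicate 1). ADAMTS10, a protease that binds fibrillin-1, rose from 5.44 ± 1.39 to 31.5 ± 2.39 CPM (log2 2.52, SE 0.18). Its vehicle replicate 1 was at 3.84 CPM against 6.14 and 6.35 CPM, and without that library ADAMTS6 rose more (log2 2.45 against 2.34). THSD4, also known as ADAMTSL6, fell from 42.5 ± 11.0 to 19.4 ± 0.316 CPM (log2 -1.14, SE 0.22), with vehicle replicate 1 at 29.8 CPM against 49.4 and 48.4 CPM. Of 4 genes that process fibrillin or add sugars to it, 2 rose and none fell (median 0.13), led by FURIN, the protease that trims fibrillin precursors, from 63.5 ± 5.08 to 317 ± 17.1 CPM (log2 2.32, SE 0.07).

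Fibronectin receptors and assembly partners rose in 7 of 10 tested and fell in none (median 0.90; 7 rose and 1 fell without vehicle replicate 1). TNS1, the tensin of fibrillar adhesions, rose from 8.67 ± 0.542 to 64.0 ± 2.47 CPM (log2 2.89, SE 0.06). ITGA5, the alpha chain of the main fibronectin receptor, rose from 286 ± 49.8 to 635 ± 14.5 CPM (log2 1.15, SE 0.12). Elastin-degrading enzymes rose in 4 of 7 tested and fell in none (median 0.52; 4 and 1 without vehicle replicate 1), and MMP12, the macrophage elastase, had 0 reads. MMP9, a gelatinase that also cuts elastin, measured 0.262, 0.747 and 0.906 CPM in vehicle and 1.68, 1.57 and 1.73 CPM with TGF-beta (log2 1.33, SE 0.32).

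**Figure D5:**
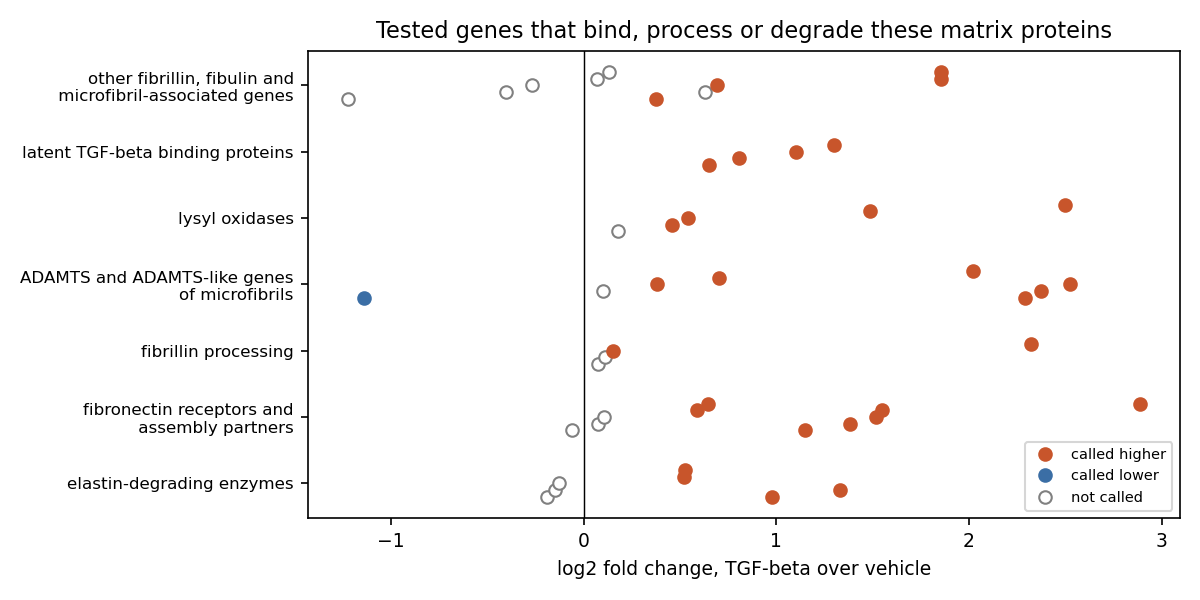
Log2 fold change of TGF-beta over vehicle for the 48 tested partner genes, 1 point a gene, by list, with filled orange for called higher, filled blue for called lower and open grey for not called. Most filled points lie to the right of 0, and THSD4 is the filled point at the left.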

How the data were processed

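RNA sequencing of 6 H69 libraries, 3 a condition, was analysed from 1 deposited table. Per the submitters' processing notes, the authors used bcl2fastq, STAR 2.6.1 and featureCounts of Subread with hg38. The authors deposited whole-number read counts per gene and, per the file headers, RPKM by gene length and library size. Gene coordinates equal those of GENCODE 29 for 10 of the 10 genes studied, and the deposited length equals its summed exons for 9. The strand setting and annotation release are not given in the sources used here.

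Counts were fitted in R 4.3.3 with edgeR 4.0.16 (TMM scaling, filterByExpr with a minimum count of 10, robust quasi-likelihood test, all 6 libraries, no block, Benjamini-Hochberg adjustment over all genes tested) and called at an adjusted p under 0.05. The standard error is the log2 fold change over the square root of F. The fit was tested on simulated counts in which few genes changed, so that test cannot speak to the scaling where many genes change. The lowest chi-square between 2 libraries of a condition was 2.48 per degree of freedom, above sampling noise, and all were kept. Alternatives were other scalings and filters, DESeq2 1.42.0, limma 3.58.1 on log2 RPKM (pseudocount 1 or 0.1, mean of 0.5 RPKM or more), a replicate block and each library left out. Ratios were tested with scipy 1.17.1. Members and lists were chosen with earlier results of these data known. Genes are named as all 10 of the set and, of the partners, the called gene with the largest rise and fall of each list. These ranks used all libraries and genes at a mean of at least 1 CPM. FBLN2, ITGA5, TNXB, LTBP4 and ADAMTS6 were named after their values were seen.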

Additional observations from a re-analysis of the deposited data

How the results depend on the processing

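For the 9 tested genes of the set, 122 fold changes were computed over 14 alternatives: 121 kept their direction and their side of the threshold, none reversed or lost its call, and FBN2 was called with library totals alone (-0.34), which gave 2 falls rather than 1. The limma fits on RPKM left out ELN and FBN2 as too low, which is why they had 6 rises rather than 7. On log2(RPKM + 1) the values of FBLN5 (1.13), MFAP2 (0.87) and EFEMP2 (0.28) were over 1.5 times smaller in size. So were those of the partners MFAP4 (0.56), TNS1 (1.12), ADAMTS10 (1.21), THSD4 (-0.52) and TNXB (-0.76). With a pseudocount of 0.1 and all else alike, FBLN5 was 2.25, MFAP2 1.41, MFAP4 1.44, TNS1 2.39, ADAMTS10 2.22, THSD4 -1.05 and TNXB -1.14. Both limma fits also differ from the edgeR fit in scaling and test, whose parts were not separated. EFEMP2 was 0.31 with library totals alone and 0.34 on log2(RPKM + 0.1). Leaving out 1 library gave 7 rises and 1 fall each time. Over all genes those fits gave 3204 to 5428 higher and 3055 to 5556 lower calls, of 21141 to 21822 tested. For the partner genes, falls numbered 3 with library totals alone, 2 by DESeq2, 3 in each limma fit, and 1 to 5 with a library left out (5 without vehicle replicate 1), against 1. The cause was not tested. Over all genes, library totals alone gave 2698 higher and 7282 lower calls of 20992 tested, against 4145 and 4278. DESeq2 gave 3798 higher and 3536 lower of 20992. The limma fits gave 2406 and 2402 higher and 4510 and 4518 lower of 15143.

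Whether same-numbered libraries shared more than a number is not labelled. Their deviations from the condition means correlated at 0.0652, 0.0623 and 0.0129, and 5 of 6 libraries correlated best with their own number. Deviations within a condition cancel out, so these matches are not independent and the count cannot decide whether libraries were paired. With the replicate number as a block, 7 of the set rose and 1 fell, as without it, and all genes gave 4247 higher and 4330 lower calls. Depth limits MFAP5 (8 reads) and ELN (12 to 41 reads in a vehicle library).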
